A study of Mus musculus with 12 samples.

Results

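The genes described here carry the mouse symbol Zfp followed by a number, the mouse name for zinc finger proteins that are usually called ZNF in humans. Of 54752 genes in the deposited count table, 365 protein-coding genes had such a symbol, and 250 of them averaged at least 5 CPM (the count of a gene scaled to a common library total) over all 12 libraries. These 250 are the members. Zfp36, an RNA-binding protein of another finger type, was left out, and 114 genes lay below the limit, 11 of them with no count at all. The members were chosen by this mean level, so their levels are a description. The values closest to the limit were 5.06 CPM for Zfp94, 5.10 for Zfp30 and 5.17 for Zfp647 inside it, and 4.82 for Zfp937, 4.78 for Zfp688 and 4.64 for Zfp526 outside it. All 250 members passed the filter of the test, and 239 reached 5 CPM on this scale in the mean of every group. The number that did so was 245 in Ep300 knockout, 248 in Crebbp knockout, 250 in double knockout and 241 in control. The other 9, below the limit in control, are members only through groups in which they were higher, so a higher level outside control follows from the choice. They are Zfp30, Zfp61, Zfp428, Zfp536, Zfp580, Zfp647, Zfp667, Zfp839 and Zfp956, and 7 of them were called higher in double knockout, 2 in Ep300 knockout and none lower in either.

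The libraries came from B16F10, an established mouse melanoma cell line, grown in DMEM with 10% FBS. The 4 groups of 3 libraries each were labelled Ep300 knockout, Crebbp knockout, knockout of both genes (here double knockout) and wild type (here control). Whether a knockout is 1 clone or a pool is not in the labels, and neither is whether libraries of the same group came from different cultures. The p-values therefore cover the variation among these libraries alone, and part of that may be technical. Total counts ran from 64257251 to 85604243 a library.

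The transcript levels of the targeted genes did not follow every label. Ep300 averaged 85.1 ± 8.80 CPM in Ep300 knockout, 104 ± 12.4 in Crebbp knockout, 148 ± 11.1 in double knockout and 94.4 ± 7.72 in control (SD, n = 3 each). Crebbp averaged 80.7 ± 11.9 CPM in Ep300 knockout, 34.5 ± 3.60 in Crebbp knockout, 64.0 ± 6.13 in double knockout and 64.7 ± 7.00 in control. Crebbp was lower in Crebbp knockout than in control (log2 fold change −0.91 ± 0.12, SE, edgeR adjusted p = 0.00053), and Ep300 was higher in double knockout than in control (0.65 ± 0.10, adjusted p = 7.3e-05). Ep300 in Ep300 knockout (−0.15, adjusted p = 0.38) and Crebbp in double knockout (−0.02, adjusted p = 0.92) did not pass the test against control. With offsets for exon length and GC content, an alternative fit used below, both were lower than in control (Ep300 in Ep300 knockout −0.14, adjusted p = 0.030; Crebbp in double knockout −0.20, adjusted p = 0.0077), and Ep300 stayed higher in double knockout (0.49, adjusted p = 1.1e-07). Counts over a whole gene do not check a small deletion. The groups are called by their labels throughout, and every direction below is that of the libraries so labelled. The 7 melanocyte markers were all above 1 CPM in each group, and their summed level was 14165 to 14813 CPM in Ep300 knockout, 17448 to 18961 in Crebbp knockout, 7189 to 7512 in double knockout and 18676 to 19253 in control. Endothelial and epithelial markers summed to at most 1.08 CPM in any library. The 7 fibroblast markers summed to 17.7 to 25.2 CPM in Ep300 knockout, 11.8 to 16.7 in Crebbp knockout, 16.6 to 18.4 in double knockout and 9.28 to 12.3 in control, with Col1a1 the highest in both the Ep300 and the double knockout and Dcn, Lum and Thy1 at 0 or under 1 CPM in every library. These markers did not move together. Col1a2 had 3.53, 2.71 and 3.27 CPM in control, but 0.59, 0.79 and 0.63 in Ep300 knockout and 0.31, 0.36 and 0.56 in double knockout. Pdgfrb was also lower in double knockout than in control (2.73, 2.89 and 2.51 CPM, against 4.66, 3.59 and 4.44). Pdgfra was higher there (4.98, 4.98 and 5.24 CPM, against 1.36, 0.87 and 1.72). The 7 immune markers summed to 3.15 to 3.73 CPM in Ep300 knockout, 1.51 to 1.91 in Crebbp knockout, 6.22 to 7.49 in double knockout and 1.66 to 1.95 in control. Nearly all of that was Cd68, and the other 6, among them Ptprc, were under 1 CPM in every library. The part of these marker levels in the results below was not tested, and in bulk RNA fewer cells of a kind and less RNA per cell cannot be told apart.

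A C2H2 zinc finger is a short loop held by a zinc ion that reads a few bases of DNA, and proteins with many fingers in a row read long sites. Many of these proteins carry a KRAB domain, which binds the corepressor TRIM28 and through it the histone methyltransferase SETDB1, and they are known for silencing transposable elements and imprinted loci. KRAB zinc finger genes arose by tandem duplication, lie in clusters and resemble each other closely. Members without KRAB are more varied and include promoter-binding factors, subunits of chromatin complexes and RNA-binding proteins. EP300 and CREBBP are paired lysine acetyltransferases that act as transcriptional coactivators at enhancers and promoters.

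A KRAB A-box motif was found in the annotated proteins of 137 members and not in those of the other 113. At least 1 C2H2 finger was found in 245 members, with a median of 11 and a maximum of 37 fingers. The KRAB members had a median of 12 fingers and a median transcript GC content of 40.5%, the others a median of 8 fingers and 48.6% GC, and the other protein-coding genes of at least 5 CPM had 49.0% GC. Reads of close copies can be split or lost in counting: in 55 members at least 10% of the 50-base stretches of the longest transcript also occurred in transcripts of other genes, in 39 of these with a KRAB motif, and in 84 members none did. Exons of 57 members overlapped a gene on the other strand, and 17 overlapped one on the same strand. The strand setting of the counting is not given in the sources used here, so reads of such overlapping pairs cannot be told apart.

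A promoter window, running from 250 bases before to 50 bases after a gene start, was found for 210 of the 250 members in a RefSeq table of build GRCm38.p6. Windows of a set of neighbouring KRAB genes on chromosome 2 are shown because these genes were lower together in double knockout, and that of Zfp536 because it had the largest rise. All run 5′ to 3′, and capitals mark the motifs searched on both strands, which are the CCAAT box (CCAAT), the GC box (GGGCGG) and the half-site of the cAMP response element (TGACG).
Zfp965 (chr2:175469775-175470074, plus strand): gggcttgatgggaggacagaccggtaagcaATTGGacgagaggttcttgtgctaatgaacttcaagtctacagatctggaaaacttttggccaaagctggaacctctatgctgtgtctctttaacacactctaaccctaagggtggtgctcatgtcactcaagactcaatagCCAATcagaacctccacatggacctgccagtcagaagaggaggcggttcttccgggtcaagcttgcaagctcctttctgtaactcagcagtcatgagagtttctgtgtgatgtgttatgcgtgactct
Zfp970 (chr2:177464492-177464791, plus strand): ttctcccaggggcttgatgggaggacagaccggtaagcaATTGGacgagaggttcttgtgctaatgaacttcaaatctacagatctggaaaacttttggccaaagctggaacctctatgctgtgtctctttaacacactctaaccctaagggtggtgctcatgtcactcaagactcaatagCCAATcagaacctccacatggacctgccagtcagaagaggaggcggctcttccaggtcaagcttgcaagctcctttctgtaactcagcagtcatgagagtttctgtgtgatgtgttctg
Zfp971 (chr2:178023034-178023333, plus strand): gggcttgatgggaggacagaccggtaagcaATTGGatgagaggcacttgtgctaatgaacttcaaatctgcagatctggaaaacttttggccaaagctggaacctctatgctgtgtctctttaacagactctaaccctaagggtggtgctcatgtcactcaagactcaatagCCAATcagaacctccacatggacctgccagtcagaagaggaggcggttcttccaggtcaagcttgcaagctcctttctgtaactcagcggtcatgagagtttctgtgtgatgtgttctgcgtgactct
Zfp931 (chr2:178078376-178078675, minus strand): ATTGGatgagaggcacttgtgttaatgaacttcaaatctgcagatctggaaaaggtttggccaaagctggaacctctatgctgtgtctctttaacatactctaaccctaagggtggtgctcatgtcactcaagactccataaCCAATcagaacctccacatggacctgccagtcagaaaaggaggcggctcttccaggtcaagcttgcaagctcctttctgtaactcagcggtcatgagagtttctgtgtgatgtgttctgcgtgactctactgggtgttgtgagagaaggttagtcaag
Zfp536 (chr7:37769703-37770002, minus strand): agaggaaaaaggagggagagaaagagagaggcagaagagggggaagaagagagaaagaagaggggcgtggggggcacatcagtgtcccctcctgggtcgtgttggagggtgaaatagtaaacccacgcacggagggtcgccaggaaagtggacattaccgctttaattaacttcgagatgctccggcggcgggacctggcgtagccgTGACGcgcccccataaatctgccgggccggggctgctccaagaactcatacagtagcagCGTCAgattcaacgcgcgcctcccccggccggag
The 4 windows of the chromosome 2 genes were 94.1% to 98.6% identical over 261 to 300 aligned positions, and each held the CCAAT box once on either strand and neither of the other motifs. The Zfp536 window held 22 CpG pairs, against 3 to 5 in those 4, and 2 half-sites of the cAMP response element. Over the members with a window, 49.5% held a CCAAT box, 45.2% a GC box and 32.9% the half-site, against 37.4%, 35.7% and 20.8% of all 32851 windows in the table. The CCAAT box was in 58.7% of the KRAB members' windows and in 37.1% of the others, and the GC box in 38.0% and 55.1%. Among members higher in double knockout 38.9% of 72 windows held a CCAAT box, and among those lower 56.8% of 37. A match of letters is not a binding site.

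The most abundant members were Zfp207, which binds the checkpoint protein BUB3 at kinetochores, Zfp706, Zfp638, which helps silence retroviral DNA with the HUSH complex, and the KRAB genes Zfp266 and Zfp871. Zfp207 had 429, 385 and 336 CPM in Ep300 knockout, 365, 361 and 407 in Crebbp knockout, 331, 324 and 350 in double knockout and 351, 397 and 362 in control. None of its comparisons with control passed the test. Per-library levels here and below are CPM after TMM scaling (trimmed mean of M values), which sets libraries to a common level over most genes. Of these 5, Zfp706 was lower in double knockout (−0.36 ± 0.08, edgeR adjusted p = 0.0015; −0.13 with adjusted p = 0.12 when libraries were scaled by total counts). Zfp871 was higher in double knockout (0.28 ± 0.09, adjusted p = 0.017), a call lost without control replicate 2 (adjusted p = 0.077) or double knockout replicate 2 (adjusted p = 0.084). The median member had 18.1 CPM over all libraries, and the median of the other protein-coding genes of at least 5 CPM was 39.7. Summed over the 250 members, the level was 7713 ± 370 CPM in Ep300 knockout, 7823 ± 108 in Crebbp knockout, 7932 ± 83.5 in double knockout and 7871 ± 97.0 in control (SD, n = 3 each). Ep300 knockout replicate 1 stood highest, with 8140 CPM against 7488 and 7510 in the other Ep300 knockout libraries.

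Against control, 10 members were higher and 11 lower in Ep300 knockout. That is 8.40% of the members, where 16.1% of all 18434 tested genes and 20.6% of protein-coding genes of at least 5 CPM passed the same test (edgeR quasi-likelihood test, Benjamini-Hochberg adjusted p of at most 0.05 over all tested genes). Higher were 4.0% of the members, where 7.27% of all tested genes were, and lower 4.4%, where 8.83% were. When libraries were scaled by total counts, 10 members were higher and 5 lower. The median log2 fold change of the members was −0.00, and that of all tested genes was 0.01. No member changed by 2-fold or more, which 6.98% of all tested genes did. With membership set on the control libraries alone (242 members), 8 were higher and 11 lower. The largest rise was that of Zfp536, a repressor of neuronal differentiation in mouse cells, which is below 5 CPM in control and a member only through the groups in which it was higher. It had 5.71, 5.87 and 6.85 CPM in Ep300 knockout, against 4.02, 3.36 and 3.71 in control. Every Ep300 knockout library was above every control library (0.73 ± 0.12, adjusted p = 0.00041).

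Zfp52, a KRAB gene of the large chromosome 17 cluster, had 23.9, 19.9 and 17.4 CPM in Ep300 knockout, against 13.4, 13.9 and 13.2 in control. The groups did not overlap (0.59 ± 0.12, edgeR adjusted p = 0.0034). Zfp292, whose human counterpart is mutated in a neurodevelopmental disorder, had 55.9, 57.9 and 64.0 CPM in Ep300 knockout, against 45.3, 38.1 and 44.1 in control (0.48 ± 0.09, adjusted p = 0.0021). Zfp513, whose human counterpart is mutated in a retinal disease, had 8.06, 9.04 and 8.59 CPM in Ep300 knockout, against 6.89, 6.17 and 6.02 in control (0.43 ± 0.09, adjusted p = 0.0043). Both genes were higher in every Ep300 knockout library. Zfp956, also below the limit in control, rose by 0.38 (adjusted p = 0.0047) and Zfp219 by 0.46 (adjusted p = 0.017), and the call of Zfp219 was lost without Ep300 knockout replicate 3 (adjusted p = 0.074) or control replicate 2 (adjusted p = 0.062).

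Of the 11 falls in Ep300 knockout, 3 were of KRAB genes and 8 of members without the motif. The KRAB gene Zfp953 had 14.3, 13.1 and 10.3 CPM in Ep300 knockout, against 15.96, 17.6 and 17.1 in control (−0.42 ± 0.11, edgeR adjusted p = 0.011). The KRAB gene Zfp799 had 11.7, 11.5 and 10.4 CPM in Ep300 knockout, against 13.9, 15.8 and 14.3 in control (−0.39 ± 0.08, adjusted p = 0.0026). Zfp637, which has no KRAB motif, had 46.4, 43.4 and 42.8 CPM in Ep300 knockout, against 52.6, 58.6 and 55.7 in control (−0.33 ± 0.08, adjusted p = 0.0061). In these 3 genes each Ep300 knockout library lay below each control library. The KRAB gene Zfp493 (−0.42, adjusted p = 0.017), Zfp2 (−0.37, adjusted p = 0.032) and Zfp608 (−0.35, adjusted p = 0.020) also fell. The call of Zfp493 was lost without Ep300 knockout replicate 2 (adjusted p = 0.064) or 3 (0.065) or control replicate 3 (0.091). That of Zfp2 was lost without Ep300 knockout replicate 2 (0.051) or 3 (0.10) or control replicate 2 (0.10) or 3 (0.077), and that of Zfp608 without Ep300 knockout replicate 1 (0.073) or 2 (0.066) or control replicate 1 (0.085) or 3 (0.069). By total counts the calls of Zfp2 (0.051) and Zfp608 (0.17) were lost as well. The count of called members was 11 without Ep300 knockout replicate 2, 13 without control replicate 3, and 47 when offsets for exon length and GC content were added for each library. The 16.1% of all tested genes holds for the main fit, and no such share is given for these alternatives.

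**Figure D1:**
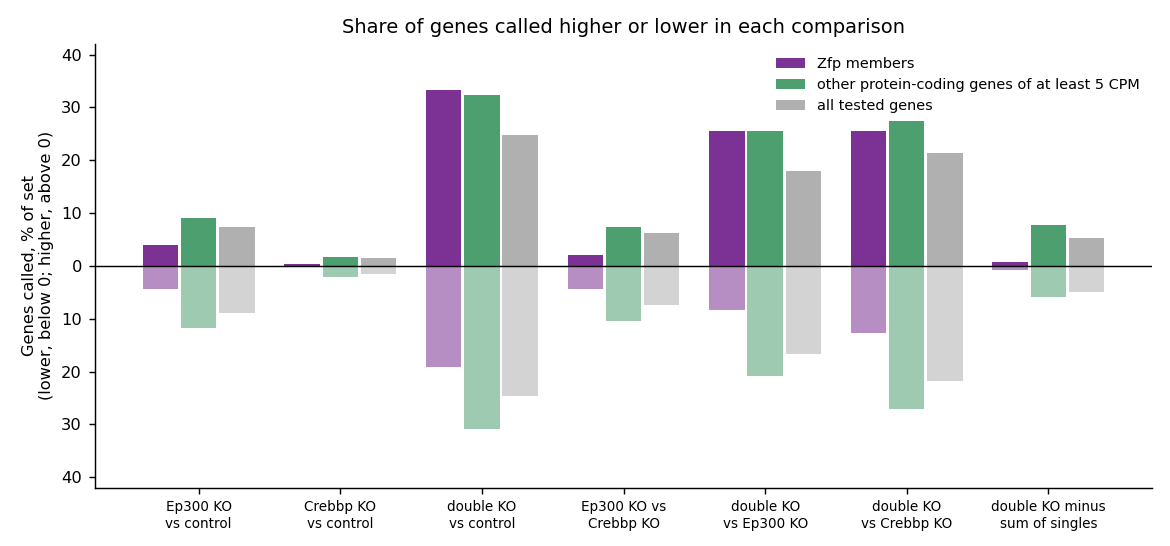
Percent of the 250 members, of the other protein-coding genes of at least 5 CPM and of all tested genes that were called higher (bars above 0) or lower (paler bars below 0) in each of 7 comparisons. In Ep300 knockout 4.0% of members were higher and 4.4% lower, and in double knockout 33.2% were higher and 19.2% lower.

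In Crebbp knockout, 1 member passed the test against control, where 3.13% of all tested genes did. This was Zfp513, with 8.09, 7.84 and 8.95 CPM in Crebbp knockout, against 6.89, 6.17 and 6.02 in control. All Crebbp knockout libraries were higher (0.38, edgeR adjusted p = 0.039). The call was lost without Crebbp knockout replicate 1 (adjusted p = 0.090), 2 (0.078) or 3 (0.10), Ep300 knockout replicate 2 (0.052), control replicate 2 (0.092) or 3 (0.17), or double knockout replicate 1 (0.063) or 3 (0.051). Of the 250 members, 38 had an unadjusted p under 0.05, DESeq2 called 8, limma-voom called 0, and the offsets for length and GC content gave 14. The 3.13% holds for the main test alone. No share of all tested genes is given for these other rules, so the counts are not read as a result about the members. The median change was 0.01, and 244 members had a 95% confidence interval that lay within 1.5-fold of control in either direction. In Ep300 knockout 236 members did, and in double knockout 172. Zfp52 had 9.84, 8.67 and 12.0 CPM in Crebbp knockout, against 13.4, 13.9 and 13.2 in control. Its libraries did not overlap with control, but the change did not pass the test (−0.41, adjusted p = 0.096).

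In double knockout, 83 members were higher and 48 lower than in control, or 52.4% of the members, where 49.4% of all tested genes and 62.9% of protein-coding genes of at least 5 CPM passed. The share of members higher was 33.2%, and 24.7% of all tested genes were higher. The share lower was 19.2%, and 24.6% of all tested genes were lower. All tested genes had a median of 9.36 CPM, so these shares are not matched to the members by level. Other protein-coding genes of at least 5 CPM were counted by direction in bands of GC content. Of 574 under 40% GC, 141 were higher and 175 lower, and of 2059 at 40% to 45%, 572 and 690. Of 2572 at 45% to 50%, 764 and 865 were, and of 2336 at 50% to 55%, 781 and 719. Of 1804 from 55%, 760 were higher and 438 lower. The split depends on the scaling: by total counts, under which the median log2 change of all tested genes was 0.22 in place of −0.02, 142 members were higher and 14 lower, while 37.7% of all tested genes were higher and 14.2% lower. Every member's log2 change was 0.23 to 0.24 higher by total counts than by TMM, so falls smaller than that change sign. All 83 rises were called under both scalings, and 14 of the 48 falls were, while 6 of the 48 had a positive change by total counts. The members' share of all counts was 8.81 ± 0.15 per mille in double knockout and 7.42 ± 0.29 in control, while their summed CPM after TMM scaling differed by less than its SD. Changes below are relative to the TMM scaling. With membership set on the control libraries alone, 76 were higher and 49 lower. The median member changed by 0.06, and the middle 50% lay between −0.18 and 0.34. Most calls were small: 103 of 131 were under 1.5-fold, 21 were at least 1.5-fold higher and 7 at least 1.5-fold lower, and 1 member reached 2-fold. Of the 131, 79 were called in each of the 22 alternatives tried, and 119 were called in the same direction with length and GC offsets.

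The member that reached 2-fold was Zfp536, whose place among the members rests on its higher level outside control, with 7.88, 8.57 and 8.65 CPM in double knockout, against 4.02, 3.36 and 3.71 in control (1.17 ± 0.12, edgeR adjusted p = 9.2e-07). The groups lay far apart. Zfp292 had 82.2, 89.3 and 82.0 CPM in double knockout, against 45.3, 38.1 and 44.1 in control (0.99 ± 0.09, adjusted p = 5.8e-07). Zfp513 had 12.2, 13.3 and 11.5 CPM in double knockout, against 6.89, 6.17 and 6.02 in control (0.95 ± 0.09, adjusted p = 6.3e-07). Each of these 3 genes was higher in all 3 double knockout libraries than in any library of the other groups. Zfp839, whose annotated protein held no finger by the pattern used, rose by 0.86 ± 0.11, and the KRAB gene Zfp30 and Zfp592 rose by 0.82 ± 0.11 each. Zfp839 and Zfp30 too were below 5 CPM in control. Zfp592, whose human counterpart works with ZMYND8, had 40.3, 41.8 and 38.5 CPM in double knockout, against 24.9, 19.0 and 24.2 in control. These 6 rises were called in all 22 alternatives.

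The 6 largest falls in double knockout comprised 5 KRAB genes and Zfp637. Zfp965 had 9.40, 9.28 and 9.38 CPM in double knockout, against 15.6, 18.4 and 16.03 in control (−0.83 ± 0.13, edgeR adjusted p = 0.00010). Zfp953 had 8.88, 9.44 and 10.3 CPM in double knockout, against 15.96, 17.6 and 17.1 in control (−0.82 ± 0.11, adjusted p = 1.4e-05). In both genes the 3 double knockout libraries were below all libraries of the other groups. Zfp958 had 46.5, 43.1 and 50.5 CPM in double knockout, against 72.5, 92.4 and 76.7 in control (−0.79 ± 0.14, adjusted p = 0.00029). Zfp637 had 31.4, 31.9 and 33.7 CPM in double knockout, against 52.6, 58.6 and 55.7 in control (−0.78 ± 0.08, adjusted p = 7.2e-07). Zfp969 and Zfp970 fell by 0.81 and 0.62 on the log2 scale. All 6 remained called when libraries were scaled by total counts, with changes from −0.39 to −0.60. In Zfp965 and Zfp969 all 50-base stretches of the transcript also occurred in other genes, and in Zfp970 57.2% did, so their counts are uncertain as to gene. In Zfp637 none did, and in Zfp953 5.21% did.

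**Figure D2:**
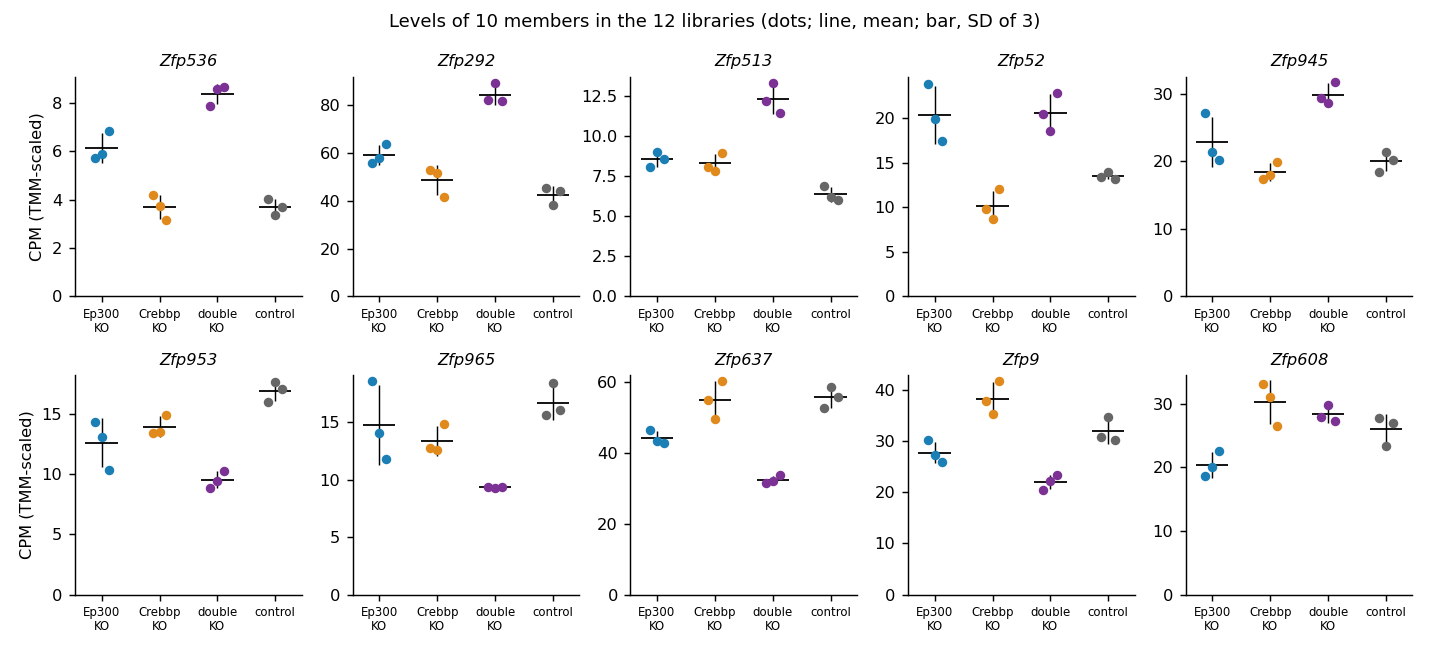
TMM-scaled CPM of 10 members in each library of the 4 groups (dots, with the mean as a line and the SD of 3 libraries as a bar), on axes that start at 0. Zfp536, Zfp292 and Zfp513 were highest in double knockout, Zfp953, Zfp965 and Zfp637 lowest there, and Zfp52 was high in Ep300 knockout and double knockout and low in Crebbp knockout.

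Between the knockouts, Zfp52 separated the single knockouts most. It had 23.9, 19.9 and 17.4 CPM in Ep300 knockout, against 9.84, 8.67 and 12.0 in Crebbp knockout (1.00 ± 0.13, edgeR adjusted p = 4.8e-05). Its level in double knockout, at 20.5, 18.6 and 22.8 CPM, lay within the range of the Ep300 knockout libraries and above all Crebbp knockout libraries. Zfp608, of which 79 bases of exon overlapped a gene on the other strand, showed the opposite order between the single knockouts, with 18.6, 20.0 and 22.6 CPM in Ep300 knockout, against 33.2, 31.2 and 26.5 in Crebbp knockout (−0.57, adjusted p = 0.00079). In all, 5 members were higher and 11 lower in Ep300 knockout than in Crebbp knockout, or 6.4% of the members, where 13.6% of all tested genes passed, while total counts gave 10 higher and 4 lower. The others with the largest differences were Zfp536 (0.73, adjusted p = 0.00051), Zfp949 (0.38, adjusted p = 0.033), Zfp799 (−0.48, adjusted p = 0.00057) and Zfp9 (−0.46, adjusted p = 0.0015). Zfp536 is a member only through groups in which it was higher than in control, so its place here follows in part from the choice. The call of Zfp949 was lost without Crebbp knockout replicate 1 (adjusted p = 0.070) or 2 (0.15), Ep300 knockout replicate 1 (0.15) or double knockout replicate 1 (0.051). The number of called members was 8 without Crebbp knockout replicate 1, 9 without Crebbp knockout replicate 2, 9 without Ep300 knockout replicate 2 and 28 without Ep300 knockout replicate 3.

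Double knockout was also compared with each single knockout. Against Ep300 knockout, 64 members were higher and 21 lower in double knockout, or 34.0% of the members, where 34.6% of all tested genes passed. Against Crebbp knockout, 64 were higher and 32 lower, or 38.4%, where 43.2% of all tested genes passed. By total counts the splits were 124 higher and 5 lower against Ep300 knockout, and 122 higher and 7 lower against Crebbp knockout. Under that scaling all tested genes shifted too, with median log2 changes of 0.16 against Ep300 knockout and 0.19 against Crebbp knockout. The members' medians were 0.25 in both. By TMM the medians of all tested genes were −0.01 in both comparisons, and those of the members 0.08 and 0.05. The split of all tested genes by direction is not given here, so these splits are not read as a trait of the members. Without double knockout replicate 2 the TMM counts were 48 and 63, and without Ep300 knockout replicate 2 the count against Ep300 knockout was 52. The largest rises over Ep300 knockout were Zfp839 (0.67), Zfp592 (0.60) and Zfp580 (0.60), and the largest falls were Zfp969 (−0.72), Zfp965 (−0.66) and Zfp958 (−0.56). Over Crebbp knockout the largest were Zfp536 (1.18), Zfp52 (1.02) and Zfp292 (0.79), and Zfp9 (−0.80), Zfp637 (−0.76) and Zfp41 (−0.56). Zfp839, Zfp580 and Zfp536 were below 5 CPM in control and are members only through groups in which they were higher. Their places among these rises therefore follow in part from the choice. Zfp9, a KRAB gene, had 20.4, 22.1 and 23.2 CPM in double knockout, against 37.7, 35.2 and 41.7 in Crebbp knockout. Its Ep300 knockout libraries, at 30.1, 27.2 and 25.9 CPM, lay between these groups.

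The change in double knockout was also compared with the sum of both single-knockout changes on the log2 scale. Here 4 members departed from the sum, or 1.6% of the members, where 10.3% of all tested genes did. Zfp945 (0.50 ± 0.15, edgeR adjusted p = 0.040) and Zfp672 (0.42, adjusted p = 0.0093) were above the sum, and Zfp9 (−0.60, adjusted p = 0.0053) and Zfp637 (−0.43, adjusted p = 0.019) below it. In Zfp672 126 bases of exon overlapped a gene on the other strand. The median departure of the members was 0.07 and that of all tested genes 0.00. By total counts 12 members were above the sum and 1 below it, with a median departure of 0.20 in members and 0.13 in all tested genes. The count was 9 without Ep300 knockout replicate 1, 14 without Ep300 knockout replicate 3, 12 without control replicate 2, and 2 without control replicate 3, without double knockout replicate 1 or without double knockout replicate 2.

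Members with a KRAB motif, whose transcripts have the lower GC content, were also counted apart from the others in double knockout. Of the 137 KRAB members 33 were higher and 30 lower, or 24.1% and 21.9%, where 24.7% and 24.6% of all tested genes were. Their median change was −0.04. All tested genes are not matched to these members by level. Of the 113 others 50 were higher and 18 lower, or 44.2% and 15.9%, with a median of 0.17. By total counts 64 KRAB members were higher and 10 lower, and 78 of the others higher and 4 lower, with medians of 0.20 and 0.40. Under that scaling 37.7% of all tested genes were higher and 14.2% lower. The difference between these sets was not tested, since members are not replicates. In Ep300 knockout the KRAB members had 3 higher and 3 lower and the others 7 higher and 8 lower (7 and 2 by total counts), with medians of −0.02 and 0.04. There 7.27% of all tested genes were higher and 8.83% lower by TMM. In Crebbp knockout no KRAB member passed the edgeR test, while 20 of the 137 had an unadjusted p under 0.05 and the offsets gave 8. No share of all tested genes is given for these 2 rules. Across members the log2 change in double knockout rose with transcript GC content, with a Spearman rho of 0.50 and Pearson r of 0.50 over 250 members, where the rho was 0.12 over 9345 other protein-coding genes of at least 5 CPM. Genes of a fit share the same libraries, so no p is given. The rho was 0.55 in Crebbp knockout and 0.30 in Ep300 knockout. With the length and GC offsets the double knockout medians were 0.01 for KRAB members and 0.08 for the others, with 41 higher and 31 lower among KRAB members and 45 higher and 20 lower among the others. The offsets are fitted to each library's deviations from the mean of all libraries. They therefore take out any trend with GC content or length that the libraries of a group share, whatever its source. The part of GC content in the difference was not tested.

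**Figure D3:**
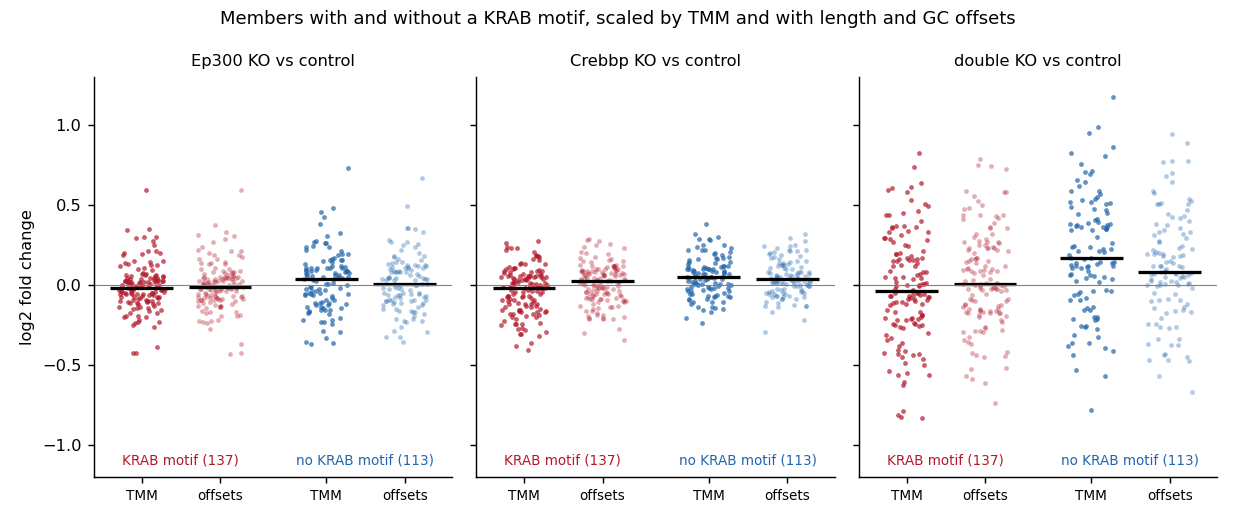
Log2 fold change of each member against control in the 3 knockout groups, for 137 members with a KRAB motif (red) and 113 without (blue), scaled by TMM (darker dots) and with length and GC offsets (paler dots); black lines are medians. In double knockout the medians were −0.04 and 0.17 by TMM and 0.01 and 0.08 with the offsets (0.20 and 0.40 by total counts, not drawn).

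Within bands of GC content the KRAB members were not alike. In double knockout 24.7% of all tested genes were higher and 24.6% lower (37.7% and 14.2% by total counts). Of 53 KRAB members under 40% GC, 5 were higher and 18 lower in double knockout (15 and 6 by total counts), with a median of −0.12 (0.12 by total counts). The 574 other protein-coding genes of that band had 141 higher and 175 lower (257 and 86 by total counts) and a median of −0.08. Of 56 KRAB members between 40% and 45% GC, 12 were higher and 11 lower (28 and 4 by total counts), with a median of −0.02. The 2059 other genes of that band had 572 higher and 690 lower and a median of −0.04. Of 16 KRAB members between 45% and 50% GC, 11 were higher and 1 lower (13 and 0 by total counts), with a median of 0.33. The 2572 other genes of the band had 764 higher and 865 lower (1241 and 487 by total counts) and a median of −0.03. The 22 members of this band without KRAB had 5 higher and 6 lower (13 and 1 by total counts) and a median of 0.08. With offsets this band's KRAB median was 0.38. Among members without KRAB, the 27 above 55% GC had 19 higher and 1 lower (25 and 0 by total counts) and a median of 0.39. The 1804 other genes of the band had 760 higher and 438 lower (1051 and 239 by total counts) and a median of 0.13. With offsets these medians were 0.19 and −0.04. Members were also split by shared sequence. The 39 KRAB members with at least 10% of their 50-base stretches in other genes had 3 higher and 15 lower and a median of −0.22, and the 98 with less had 30 higher and 15 lower and a median of 0.03. By total counts the first had 10 higher and 5 lower and the others 54 higher and 5 lower. Whether counting of reads from close copies takes part in this was not tested.

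**Figure D4:**
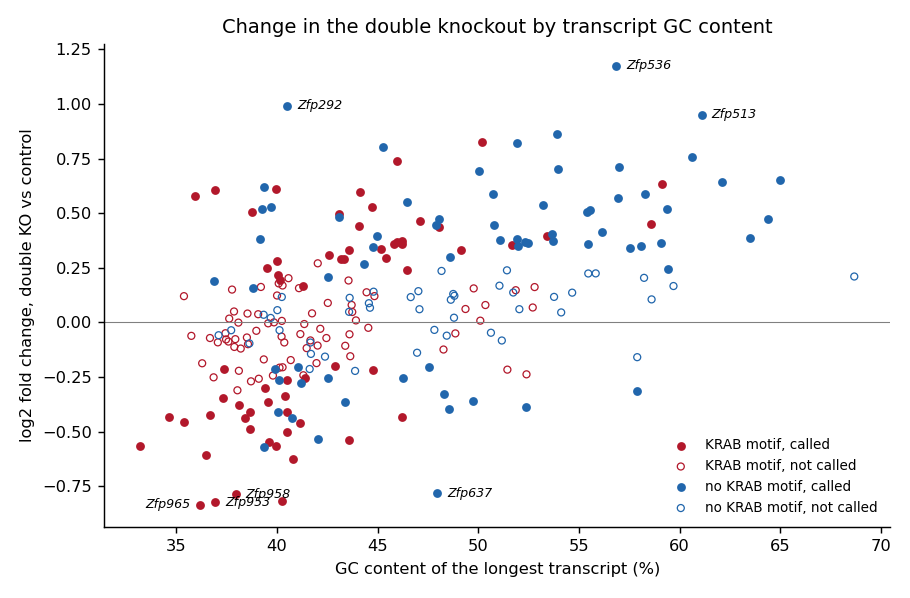
Log2 fold change in double knockout against control (vertical axis) and GC content of the longest transcript in percent (horizontal axis) of the 250 members, with called members filled. Spearman rho was 0.50. Zfp292, at 40.5% GC, rose by 0.99, and Zfp637, at 48.0% GC, fell by 0.78.

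Members were also grouped by position. When members with gaps of at most 500 kb were joined, 13 clusters of 4 or more held 103 of the 250 members. In double knockout, where 24.7% of all tested genes were higher and 24.6% lower, the counts of a cluster depended on the scaling. The shares of all tested genes by total counts were 37.7% higher and 14.2% lower. The cluster of Zfp606, Zfp329, Zfp110, Zfp128 and Zfp324 on chromosome 7 had 4 higher, none lower and a median of 0.40 (5 higher by total counts). The cluster from Zfp398 to Zfp467 on chromosome 6, in which 2 of 7 members had a KRAB motif, had 5 higher, none lower and a median of 0.36 (6 higher by total counts). All 12 members of the chromosome 13 cluster from Zfp759 to Zfp273 had a KRAB motif, and 4 fell, with a median of −0.23 over all 12. Those 4 were Zfp953 (−0.82), Zfp493 (−0.56), Zfp85 (−0.49) and Zfp458 (−0.27). By total counts 2 of this cluster fell and 4 rose, with a median of 0.00. Zfp85 (adjusted p = 0.11) and Zfp458 (0.83) lost their calls, and Zfp595 (0.39, adjusted p = 0.0058), Zfp87 (0.36, 0.0039), Zfp65 (0.28, 0.0077) and Zfp738 (0.20, 0.042) were called higher. On chromosome 4, 3 of the 4 KRAB members from Zfp991 to Zfp933 fell, with a median of −0.44, and in these the median shared fraction of 50-base stretches was 41.0%. By total counts Zfp984 kept its call (−0.37, adjusted p = 0.0032), and Zfp991 (−0.22, adjusted p = 0.093) and Zfp979 (−0.20, adjusted p = 0.15) lost theirs. The largest cluster, on chromosome 17, held 21 members from Zfp160 to Zfp13, with 5 higher and 4 lower (9 and 1 by total counts) and a range from −0.55 to 0.61. Zfp52 and Zfp945 were among its rises. By chromosome, 26 of 57 members on chromosome 7 were higher and 2 lower, 8 of 13 on chromosome 9 were higher and none lower, and none of 22 on chromosome 13 was higher and 8 lower. By total counts these were 39 and 0 on chromosome 7, 11 and 0 on chromosome 9, and 8 and 2 on chromosome 13. These clusters and chromosomes were singled out after their values were seen. The rises on chromosome 7 include Zfp30, Zfp428 and Zfp536, and those of the chromosome 6 cluster include Zfp956. These genes were below 5 CPM in control and are members only through groups in which they were higher. Their part in these counts of rises therefore follows from the choice.

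**Figure D5:**
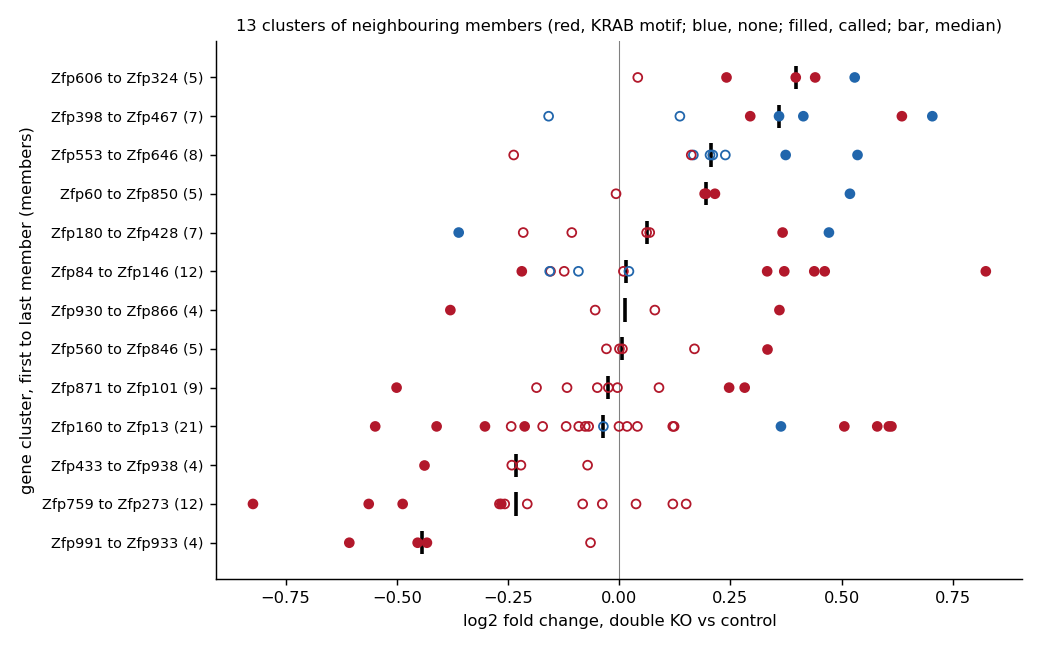
Log2 fold change in double knockout against control of the members of 13 clusters, 1 row each, named by first and last member with the number of members; red dots have a KRAB motif, blue have none, filled dots were called and bars are medians. Medians run from −0.44 for Zfp991 to Zfp933 to 0.40 for Zfp606 to Zfp324 by TMM, and every member lies 0.23 to 0.24 higher by total counts.

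The distal end of chromosome 2 held the genes whose windows are printed above. Of 8 KRAB members on this chromosome, 5 fell in double knockout and none rose. In Zfp965 the change was −0.83, in Zfp969 −0.81, in Zfp970 −0.62, in Zfp931 −0.56 and in Zfp971 −0.33, and they lie between chr2:175469985 and chr2:178078476 (GRCm38). Zfp931 had the highest mean level of the 5, at 33.5 CPM, and the lowest shared fraction, at 16.7%. With length and GC offsets Zfp971 lost its call (edgeR adjusted p = 0.12). By total counts Zfp971 (adjusted p = 0.39) and Zfp931 (adjusted p = 0.057) lost theirs. None of the 5 passed the test in either single knockout, where their changes ran from −0.20 to 0.06 in Ep300 knockout and from −0.38 to −0.12 in Crebbp knockout. Zfp120, Zfp442 and Zfp345, which lie farther along the same chromosome towards the centromere, changed by −0.11, −0.08 and −0.31 and did not pass. Their windows shared 65.5% to 75% of positions with the others and each other.

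Members with a known role were taken from a list of 43, of which 31 are members. Of 5 KRAB repressors with known targets, 4 were higher and 1 lower in double knockout, where 24.7% and 24.6% of all tested genes were. Zfp809, which silences murine leukaemia virus through its primer binding site, had 28.5, 31.3 and 28.8 CPM in double knockout, against 23.3, 23.2 and 23.6 in control. No double knockout library came below 28.5 CPM, and the control libraries were nearly equal (0.34 ± 0.07, edgeR adjusted p = 0.00080). Zfp445, which keeps genomic imprints, rose by 0.29 (adjusted p = 0.0024), Zfp110, a partner of the p75 neurotrophin receptor, by 0.24 (adjusted p = 0.0067), and Zfp568, which represses a placental Igf2 transcript in the mouse embryo, by 0.46 (adjusted p = 0.00051). Zfp932, which represses endogenous retroviruses in mouse embryonic stem cells, fell by 0.35 (adjusted p = 0.046), and its change was −0.11 by total counts (adjusted p = 0.45) and −0.20 with the offsets (adjusted p = 0.021). That call was lost also without Crebbp knockout replicate 1 (0.055), Ep300 knockout replicate 2 (0.059), control replicate 2 (0.18) or 3 (0.051) or double knockout replicate 1 (0.11) or 2 (0.14). In Zfp932 45.2% of the 50-base stretches occurred in other genes.

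Of 10 members tied to silencing or chromatin complexes, 6 rose in double knockout and none fell, where 24.7% of all tested genes were higher and 24.6% lower, with a median of 0.38. By total counts 9 of the 10 were higher, where 37.7% of all tested genes were. Zfp592 and Zfp687, whose human counterparts sit together in a complex with ZMYND8, rose by 0.82 and 0.51, and Zmynd8 itself by 0.32 (edgeR adjusted p = 0.0087; 0.14 with the offsets, adjusted p = 0.011). Zfp827, whose human counterpart recruits the NuRD complex to telomeres, rose by 0.69 (adjusted p = 0.00023), Zfp335, needed for neural progenitors and T cells in mice, by 0.52 (adjusted p = 0.0046), and Zfp644, a partner of the histone methyltransferases G9a and GLP, by 0.38 (adjusted p = 6.6e-05). Zfp609, a partner of the cohesin loader NIPBL, rose by 0.37 (adjusted p = 0.022), which was lost without control replicate 2 (0.097) or double knockout replicate 1 (0.054) or 2 (0.084). Zfp638, Zfp532, Zfp217 and Zfp516 changed by −0.04, −0.05, 0.14 and 0.12 and did not pass. By total counts Zfp638 (0.20, adjusted p = 0.026), Zfp217 (0.37, adjusted p = 0.016) and Zfp516 (0.35, adjusted p = 0.020) were higher. With the offsets the rises of Zfp687, Zfp335 and Zfp609 were smaller, at 0.30, 0.27 and 0.20, and still passed. In Zfp335 1341 bases of exon overlapped a gene on the other strand, and in Zfp687 254.

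Among the promoter factors, Zfp143, which binds promoters of small nuclear RNA genes, rose by 0.35 (edgeR adjusted p = 0.0017), Zfp384, which binds poly(dA) stretches, by 0.36 (adjusted p = 0.0023; 0.22 with the offsets), and Zfp281 by 0.48 (adjusted p = 1.5e-05). Zfp148, the paralog of Zfp281, fell by 0.21 (adjusted p = 0.0087), with a change of 0.02 by total counts. Zfp281 had 72.1, 76.0 and 73.2 CPM in double knockout, against 53.2, 51.3 and 53.7 in control, and Zfp148 had 136, 135 and 134 CPM in double knockout, against 156, 161 and 152 in control. The libraries of these paralogs moved apart without overlap. Of 9 proteins of RNA, ribosomes, the spindle and ubiquitin, 2 rose and 2 fell, a share each way near that of all tested genes (24.7% and 24.6%). By total counts 5 rose and none fell, where 37.7% of all tested genes were higher and 14.2% lower. The SUMO ligase gene Zfp451 fell by 0.20 (adjusted p = 0.021), lost without control replicate 1 (0.089) or double knockout replicate 1 (0.085) or 3 (0.060) and 0.03 by total counts. Zfp346, which binds double-stranded RNA, fell by 0.38 (adjusted p = 0.00016; −0.15 with adjusted p = 0.099 by total counts). Zfp830 rose by 0.30 (adjusted p = 0.0023; 0.51 with the offsets). Zfp598, a ubiquitin ligase of collided ribosomes, rose by 0.24 (adjusted p = 0.031), a call lost with the offsets (0.02, adjusted p = 0.80) and without control replicate 1 (0.062) or 2 (0.11) or double knockout replicate 1 (0.053) or 2 (0.14). Zfp207, Zfp622, Zfp326, Zfp106 and Zfp91 did not pass, with changes from −0.14 to 0.11. Of the growth regulators, Zfp703, whose human counterpart is an amplified gene of luminal breast cancer, rose by 0.76 (adjusted p = 1.7e-05) and Zfp746, a parkin substrate, by 0.41 (adjusted p = 0.00024; 0.15 with the offsets). Zfp365 fell by 0.20 (adjusted p = 0.0096; 0.03 by total counts). In Ep300 knockout 4 of the 31 members of the role list passed, where 16.1% of all tested genes did. Zfp568 rose by 0.28 (adjusted p = 0.045), and Zfp451, Zfp346 and Zfp365 fell by 0.24, 0.22 and 0.18 (adjusted p = 0.020, 0.028 and 0.045). Leaving out 1 library ended these calls in 9 of the 12 cases for Zfp568, 3 for Zfp451, 3 for Zfp346 and 10 for Zfp365. Total counts ended all 4 (adjusted p = 0.071 for Zfp568, 0.23 for Zfp451, 0.18 for Zfp346 and 0.34 for Zfp365).

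The partners through which KRAB proteins act were measured in the same libraries. Trim28, the corepressor that binds KRAB, averaged 227 ± 28.4 CPM in Ep300 knockout, 258 ± 17.7 in Crebbp knockout, 261 ± 9.19 in double knockout and 213 ± 10.5 in control (SD, n = 3 each). It was higher in double knockout (0.29 ± 0.09, edgeR adjusted p = 0.013), a call lost with length and GC offsets (0.05, adjusted p = 0.40), and its changes in the single knockouts did not pass. With the offsets it was higher in Crebbp knockout (0.20, adjusted p = 0.019). Setdb1, the histone methyltransferase, averaged 35.8 ± 2.58 CPM in Ep300 knockout, 39.6 ± 2.60 in Crebbp knockout, 38.3 ± 2.54 in double knockout and 40.7 ± 2.94 in control, with no change past the test. With the offsets it was lower in double knockout (−0.14, adjusted p = 0.043). Of 33 genes of the KRAB corepressor and heterochromatin list, 12 were higher and 8 lower in double knockout, or 36.4% and 24.2%, where 24.7% and 24.6% of all tested genes were, with a median of 0.11. By total counts 19 were higher and 3 lower, where 37.7% and 14.2% of all tested genes were. With the offsets 13 were higher and 13 lower, and no share of all tested genes is given for that fit. The histone H3.3 chaperone gene Daxx rose by 1.02, Chd3 by 0.62 and Atf7ip, a partner of SETDB1, by 0.60. The heterochromatin protein genes Cbx1 and Cbx3 fell by 0.47 and 0.51, and the DNA methyltransferase genes Dnmt3b and Dnmt3a by 0.80 and 0.42. The heterochromatin protein gene Cbx5 (−0.02, edgeR adjusted p = 0.86) and the DNA methyltransferase gene Dnmt1 (0.14, adjusted p = 0.32) did not pass. Among other called genes of the list, Chd4 rose by 0.51 (adjusted p = 0.0017) and Uhrf1 fell by 0.32 (adjusted p = 0.0030). Not every called gene of the list is named here. By total counts Dnmt1 was higher (0.37, adjusted p = 0.035) and Cbx5 was not called (0.21, adjusted p = 0.074). By total counts the falls of Cbx1, Cbx3 and Dnmt3b were 0.24, 0.27 and 0.56 and still passed, and that of Dnmt3a did not (−0.19, adjusted p = 0.20). In Ep300 knockout 3 of the 33 were higher and 1 lower, where 7.27% and 8.83% of all tested genes were, and in Crebbp knockout none passed the edgeR test.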

How the data were processed

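RNA was sequenced from 12 B16F10 libraries in 4 groups of 3. Per the submitters' processing notes, the authors used bcl2fastq, HISAT2 and HTSeq with build mm10; versions and the strand setting could not be taken from those notes. Libraries were made with a stranded mRNA kit, per the labels' protocols. The deposited table holds raw read counts per gene, 1 column a library. GENCODE M21 gave biotypes, positions, exon lengths, GC content and protein sequences to 54723 of the 54752 genes, and the other 29 held at most 0.0378 per mille of a library's counts. Total counts ran from 64257251 to 85604243, and no pair of libraries of the same group was alike within sampling noise. Pairs across groups were not compared in this way.

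Genes were filtered with filterByExpr, which left 18434, scaled by TMM and tested with the robust quasi-likelihood F test of edgeR 4.0.16 (R 4.3.3) in a single fit of all 12 libraries by group. The adjustment was that of Benjamini and Hochberg over all tested genes of a comparison, with a threshold of 0.05. Each SE was taken back from the F value. The biological coefficient of variation was 9.46%, and the median 95% interval of a member reached 0.20 to either side of its log2 fold change against control. The test was run on simulated counts in which a small set of genes changed in double knockout, equally up and down. Since most genes were unchanged there, that run cannot speak to the choice of scaling. Offsets for exon length and GC content were splines with 5 degrees of freedom, fitted per library.

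C2H2 fingers and KRAB motifs were found by pattern in the annotated proteins, and promoter windows came from RefSeq. Named members were the 6 largest rises and falls among called members whose libraries did not overlap (3 between knockouts, and without the overlap condition for the sum), those on the role list, the 5 most abundant and those next to the limit. The members and all lists were chosen with earlier results of these data known. Alternatives were RLE size factors, DESeq2 1.42.0, limma-voom 3.58.1, other filters on low counts, fits of the compared groups alone, a block for replicate number, the offsets, other membership limits and leaving out each library. Total-count scaling, and the offsets together with the block, were added after seeing the data.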

Additional observations from a re-analysis of the deposited data

Results flagged for a closer look

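In 4 members the change in the libraries labelled double knockout differed from the sum of the changes in those labelled with a single knockout, by the test of that difference itself (edgeR, adjusted over all tested genes). Zfp9 was below the sum by −0.60 on the log2 scale (adjusted p = 0.0053). Against control it changed by −0.54 in double knockout, by −0.20 in Ep300 knockout and by 0.26 in Crebbp knockout. Zfp637 was below the sum by −0.43 (adjusted p = 0.019), with −0.78 in double knockout, −0.33 in Ep300 knockout and −0.02 in Crebbp knockout. This call was lost without control replicate 1 (adjusted p = 0.058) or 3 (0.054), without double knockout replicate 1 (0.057) or 2 (0.055), and by total counts (−0.30, adjusted p = 0.071). Zfp672 was above the sum by 0.42 (adjusted p = 0.0093), with 29.5, 29.7 and 29.4 CPM in double knockout, 20.8, 20.7 and 21.8 in Ep300 knockout, 17.4, 16.5 and 18.9 in Crebbp knockout and 17.1, 16.5 and 17.1 in control. Zfp945 was above the sum by 0.50 (adjusted p = 0.040), a call lost in 9 of the 12 fits that left out 1 library (adjusted p from 0.059 to 0.11 in those).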

How the results depend on the processing

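In double knockout against control the number of called members stayed within 1.5 times the main 131 under all alternatives tried, from 108 to 139 when 1 library was left out and 156 by total counts. In Ep300 knockout against control (21 members) it was 47 with length and GC offsets, 40 with offsets and the replicate block, 11 when only the groups compared were fitted, and 11 to 28 without 1 library. In Crebbp knockout against control (1 member) it was 8 by DESeq2, 14 with offsets, 7 with offsets and the block, 9 with no filter on low counts, 2 by total counts, 0 by limma-voom, 0 in a fit of these 2 groups, 0 with membership at 10 CPM, 0 with the replicate block, and 0 to 1 without 1 library. In Ep300 knockout against Crebbp knockout (16) it was 27 by DESeq2, 44 with offsets, 40 with offsets and the block, 25 with no filter, 7 with only the groups compared and 8 to 28 without 1 library. Double knockout against Ep300 knockout (85) gave 129 by total counts and 48 to 111 without 1 library, and against Crebbp knockout (96) 63 to 107 without 1 library. Departures from the sum (4) were 14 by DESeq2, 22 with offsets, 10 with offsets and the block, 9 with a filter of 1 CPM in 3 libraries, 10 with no filter, 13 by total counts and 2 to 14 without 1 library. The causes were not tested, and no share of all tested genes under the alternatives is set beside these counts.

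By total counts, a scaling chosen after seeing the data, 4 named members changed sign in double knockout, Zfp638 (0.20), Zfp451 (0.032), Zfp148 (0.022) and Zfp365 (0.033). Over all named members and alternatives, 5395 values kept direction and side of the threshold, 88 gained a call, 129 lost one and 4 changed sign. No pairing of libraries by the replicate numbers in the labels was visible. Of 18 same-numbered pairs, 1 had a correlation of deviations over 0.1, with a range from −0.17 to 0.11, and 4 of 12 libraries were closest to their own number. Pairs of different number reached 0.21 (Crebbp knockout replicate 3 with control replicate 2) and −0.23 (Ep300 knockout replicate 3 with control replicate 2). Whether same-numbered libraries were handled together cannot be told from these values. With the replicate block the counts against control were 117 in the libraries labelled double knockout, 15 in those labelled Ep300 knockout and 0 in those labelled Crebbp knockout, 11 between the single knockouts, 71 and 84 in double knockout against each single knockout and 3 for the sum. Membership limits of 2 and 10 CPM gave 288 and 201 members, and 5 CPM over the control libraries 242.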

Other observations

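Other zinc finger families in the same double knockout libraries gave these counts. Of 32 Zbtb genes, in which fingers are joined to a BTB domain, 16 were higher and 4 lower than in control, with a median log2 change of 0.19. Of 12 Zkscan and Zscan genes, which carry a SCAN domain, 6 were higher and 2 lower (median 0.17). Of 15 Klf and Sp genes, 4 were higher and 5 lower (median 0.05), with a range from −1.71 to 4.58. Of 22 Zfp genes whose symbol ends in a letter, 8 were higher and 1 lower (median 0.03). By total counts these were 23 and 1, 9 and 1, 8 and 2, and 13 and 0, where 37.7% and 14.2% of all tested genes were. By TMM 24.7% of all tested genes were higher and 24.6% lower, or 49.4% in all. Of the 74 Zfp candidates that entered the fit below 5 CPM, 16 were higher and 9 lower (median 0.01), and 8 of them changed by 2-fold or more, a fold that 14.9% of all tested genes passed.

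The spread of changes in the members was set beside that of other genes past the same level limit, with no test. In double knockout the middle 50% of log2 changes spanned 0.53 in the 250 members and 0.60 in 9345 other protein-coding genes of at least 5 CPM, and their extremes were −0.83 and 1.17 in members, against −3.64 and 7.07 in those other genes. In Ep300 knockout the spans were 0.19 and 0.23.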
